A study of Sus scrofa with 26 samples.

Results

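The genes described here carry the insulin signal inside the cell, and they were measured in the subcutaneous adipose tissue (SCAT) of pigs. They are 9 genes, chosen by name for their place in the pathway, of 11570 named genes on the array: the receptor INSR, its substrates IRS1 and IRS2, the lipid kinase subunit PIK3R1, the kinases AKT1 and AKT2, the transcription factor FOXO1, the enzyme PCK1 and the adaptor GRB10. All probes carrying one of these names were taken, which gave 27 probes. Back fat from 26 pigs was hybridised to 26 one-colour arrays, 1 pig per array. The pigs were growing castrated males. They came from the Creole breed, from Large White (LW) or from the cross of both (F1), and they were either thermoneutral (TN, 24 °C) or heat stressed (HS). There were 3 Creole, 4 F1 and 4 LW pigs in TN and 5 pigs of each breed in HS. For HS, the labels name 30 °C and the series description 32 °C over 5 days. All pigs had free access to feed and were not fasted before slaughter. The paper reports that the heat-challenged pigs ate less in heat than before it. Heat itself and the lower feed intake cannot be told apart here. As the TN group was killed ahead of the warming and the HS group after it, ambient temperature cannot be told apart from day of slaughter and age. The p-values measure the spread between pigs. Pen, litter and slaughter day were not in the labels and were not in the model.

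Insulin binds INSR, a receptor tyrosine kinase, which phosphorylates IRS1 and IRS2. These recruit the PI3-kinase, whose regulatory subunit p85alpha is encoded by PIK3R1, and the lipid it makes activates AKT1 and AKT2. In adipocytes this moves the glucose transporter GLUT4 to the cell surface, restrains lipolysis and keeps FOXO1 out of the nucleus. PCK1, the cytosolic phosphoenolpyruvate carboxykinase, is a classical target of FOXO1 that insulin represses; in fat it feeds glyceroneogenesis, the making of glycerol for fatty acid re-esterification. GRB10 binds the activated receptor and dampens its signal. An array reads messenger RNA only, and not the phosphorylation by which most of this pathway works.

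Of the 27 probes, 26 were well above background on at least 8 arrays and were tested among the 44703 such probes of the array. The remaining one, the FOXO1 probe O2940, was well above background on 3 of 26 arrays only. Between 41314 and 46185 probes per array (median 43271) were well above background, and no spot was saturated. All 8 adipocyte markers with a probe (among them ADIPOQ, PLIN1 and LEP) were above background on 26 of 26 arrays. Levels are given as log2 intensity after normalization, so that a difference of 1 is a doubling. Levels of different probes are not set against each other. In bulk tissue, fewer cells of a type and less RNA per cell cannot be told apart.

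Several genes are read by more than one probe, and part of what follows turns on which probe is read. IRS1 has 4 probes. One of them, A_72_P371473, is described in the files as an insulin receptor substrate 1-like predicted transcript, and the other 3 as IRS1 itself. FOXO1 has 5 probes, PCK1 6 and GRB10 7, and the other genes have 1 each. The IRS2 probe is named only through its description, by similarity to a mouse gene. For the AKT2 probe O11506 and the FOXO1 probe O2940, the strand of the printed bases could not be checked. Their values may therefore not be those of the messenger RNA of these genes. The sequences below are from probes that the results turn on, as the files give them, 5′ to 3′, with the first 30 bases only for A_72_P371473. No capitals are used, as no base is singled out.
IRS1 A_72_P371473: gaaactacacccaacctggaatttcttcct
IRS1 O11228: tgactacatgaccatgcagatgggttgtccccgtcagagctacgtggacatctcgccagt
IRS1 A_72_P443378: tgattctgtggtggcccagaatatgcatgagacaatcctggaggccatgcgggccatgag
IRS1 A_72_P537138: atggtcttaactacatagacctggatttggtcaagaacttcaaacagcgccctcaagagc
FOXO1 A_72_P441344: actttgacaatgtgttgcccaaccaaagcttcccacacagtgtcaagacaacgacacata
PCK1 A_72_P441080: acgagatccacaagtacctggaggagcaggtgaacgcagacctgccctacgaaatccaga
GRB10 A_72_P567934: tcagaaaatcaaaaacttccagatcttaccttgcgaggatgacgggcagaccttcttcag

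None of the 4 IRS1 probes or the 5 FOXO1 probes shared a run of 18 or more bases with any other probe of the array. The GRB10 probes A_72_P432379 and A_72_P441159 shared 49 bases, and 3 of the PCK1 probes shared runs of 19 to 35 bases, so these are not separate measurements of the transcript. For each gene, the probe with the highest mean level is described first.

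The first question was whether exposure to heat changed the level of these genes. It was answered by HS minus TN with breed held fixed. One of the 26 member probes passed an adjusted p of 0.05 (3.85%), whereas 12.2% of all tested probes passed it, 5.16% being higher and 7.02% lower in HS. The one that passed was the IRS1 probe A_72_P371473, which was higher in HS. The median difference was -0.10 over the member probes and 0.00 over all tested probes, on the log2 scale. With this one, 2 member probes (7.69%) had an unadjusted p under 0.05, against 26.9% of all tested probes.

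IRS1, the main substrate of the receptor in adipocytes, was read by A_72_P371473 at 11.09, 10.82 and 11.12 in the 3 Creole TN pigs and at 11.38, 11.63, 11.02, 11.46 and 11.71 in the Creole HS pigs. In F1, the TN pigs were at 11.27, 11.68, 10.90 and 11.22 and the HS pigs at 11.57, 11.54, 11.58, 11.28 and 11.39. In LW, the TN pigs were at 11.59, 11.48, 11.41 and 11.57 and the HS pigs at 11.81, 12.02, 11.82, 11.60 and 11.59. The HS pigs were mostly the higher ones, with overlap in Creole and F1; in LW the lowest HS pig lay at the level of the highest TN pig. The TN pigs averaged 11.29 ± 0.29 (SD, n = 11) and the HS pigs 11.56 ± 0.24 (SD, n = 15). With breed held fixed the difference was 0.29 (SE 0.08, 95% confidence interval 0.12 to 0.45, adjusted p = 0.0188), a 1.22-fold rise. Each of the 15 HS pigs was above the TN mean of its own breed. Leaving out each array in turn kept the call, with an adjusted p of 0.00426 to 0.0422. HS was higher than TN on each of the 5 slides, by 0.06 to 0.56.

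The other 3 IRS1 probes did not pass. Their differences were 0.12 for O11228 (adjusted p = 0.101), 0.08 for A_72_P537138 (adjusted p = 0.478) and 0.05 for A_72_P443378 (adjusted p = 0.508). O11228 passed when background-corrected signals were used. It differed by 0.31 (adjusted p = 0.0225) with the processed signal scaled to the 75th percentile, where A_72_P371473 differed by 0.25 (adjusted p = 0.0328), and by 0.11 (adjusted p = 0.0392) after the normexp correction. The mean of the 4 probes differed by 0.13 (adjusted p = 0.0727). Over the 26 arrays, pairs of IRS1 probes correlated with Pearson's r from 0.43 to 0.50, which is a description over pigs of 6 groups.

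Several marker lists of other cell types also differed between HS and TN. Of the 8 fibroblast and matrix markers, 4 were higher in HS and 0 lower, and their mean score (log2, centred per gene) ranged from -1.01 to 0.24 in TN and from -0.31 to 0.62 in HS. The level of A_72_P371473 correlated with this score (r = 0.79 over 26 arrays, 0.58 after removing the group means) and inversely with the adipocyte score (r = -0.68 and -0.62). Of the 6 red blood cell markers, 2 were lower in HS, and their score ranged from 0.03 to 0.46 in TN and from -0.49 to 0.27 in HS. With that score as a covariate the IRS1 difference was 0.21 (adjusted p = 0.374), and 214 probes in all passed in place of 5445. Schwann cell markers were higher in HS for 3 of 6, with scores from -0.67 to 0.12 in TN and from -0.24 to 0.94 in HS, and proliferating cell markers were lower for 4 of 5, with scores from -0.10 to 0.87 in TN and from -0.90 to 0.46 in HS. After removing the group means these scores correlated with the IRS1 probe at -0.40 and 0.35. Without the breed term the IRS1 difference was 0.27 (adjusted p = 0.0898). The part of other cell types in the IRS1 difference was not tested.

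**Figure D1:**
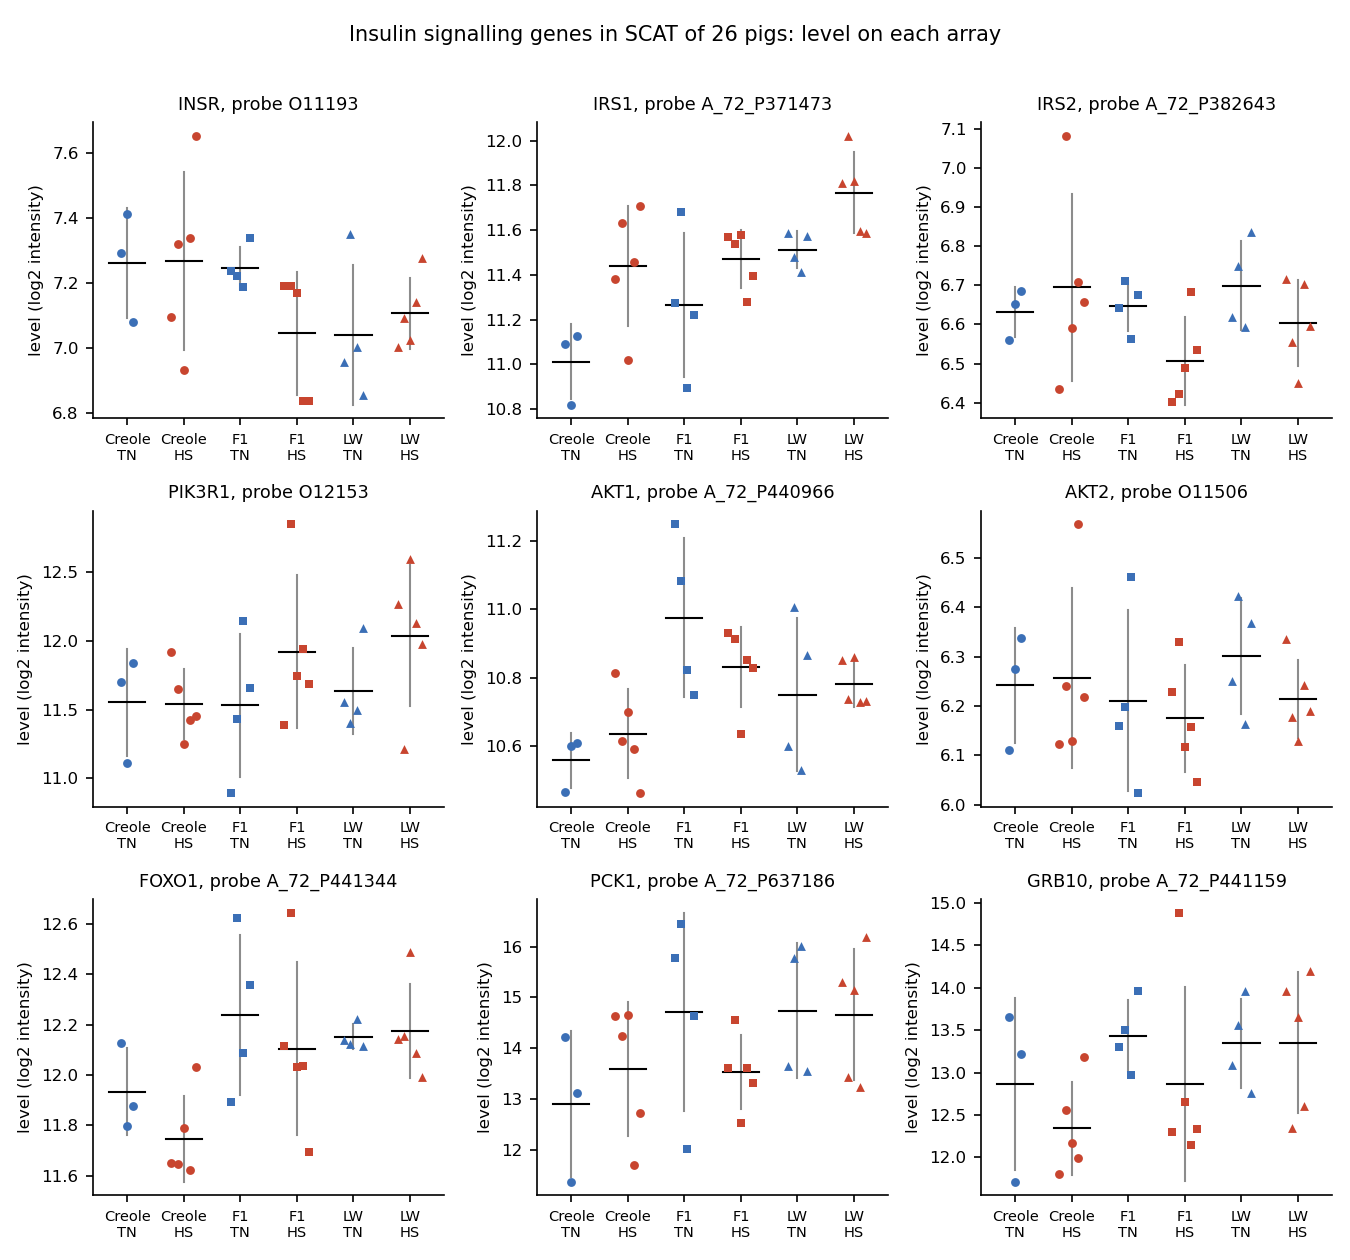
Level (log2 intensity after normalization) of the 9 insulin signalling genes on each of the 26 arrays, 1 probe per gene, with TN pigs in blue and HS pigs in red; the black bar is the group mean and the grey line is 1 SD on each side. The IRS1 mean is higher in HS than in TN in each breed, whereas PCK1 spans 11.37 to 16.45 with no separation of the groups.

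INSR itself, read by 1 probe, ranged from 6.84 to 7.65 over all pigs. Its mean was 7.18 ± 0.18 (SD, n = 11) under TN against 7.14 ± 0.21 (SD, n = 15) under HS. The difference of -0.05 had a 95% confidence interval of -0.20 to 0.11 (adjusted p = 0.744), and its sign turned when the background-corrected signals were used. IRS2, the second substrate, averaged 6.66 ± 0.08 (SD, n = 11) for TN pigs and 6.60 ± 0.17 (SD, n = 15) for HS pigs. The difference was -0.06 (95% confidence interval -0.18 to 0.05, adjusted p = 0.513). Neither difference exceeded the spread between pigs.

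PIK3R1, which holds the catalytic subunit of the PI3-kinase to the receptor complex, was the most variable of the upstream genes. Its lowest, median and highest values were 10.89, 11.55 and 12.14 in TN and 11.21, 11.74 and 12.85 in HS. The ranges overlapped over most of their length. The difference of 0.28 did not pass (95% confidence interval -0.06 to 0.61, adjusted p = 0.289), and 10 of 15 HS pigs were above the TN mean of their breed. Within breeds it was -0.01 in Creole, 0.39 in F1 and 0.40 in LW, and the interaction of breed and temperature did not pass either (adjusted p = 0.929).

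By the probes described first, AKT1 and AKT2, the kinases that relay the signal, showed the smallest differences. The AKT2 value rests on a single probe whose strand could not be checked. AKT1 averaged 10.78 ± 0.25 (SD, n = 11) under TN against 10.75 ± 0.13 (SD, n = 15) under HS, a difference of -0.02 (95% confidence interval -0.15 to 0.11, adjusted p = 0.90). AKT2 was at 6.25 ± 0.14 (SD, n = 11) and 6.22 ± 0.13 (SD, n = 15), a difference of -0.04 (95% confidence interval -0.15 to 0.07, adjusted p = 0.699). The intervals leave room for changes of up to 0.15 on the log2 scale at either probe.

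FOXO1, which switches on genes of fasting when insulin is low, was read by A_72_P441344 at 12.12 ± 0.23 (SD, n = 11) under TN against 12.01 ± 0.30 (SD, n = 15) under HS. The difference was -0.10 (95% confidence interval -0.28 to 0.09, adjusted p = 0.53). Among the 4 tested FOXO1 probes, A_72_P107426 and A_72_P280234 differed by -0.17 and -0.10, and A_72_P452642 by 0.14, with adjusted p from 0.315 to 0.551. The direction thus differed between probes of the gene, and none passed.

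PCK1 had the widest spread between pigs of the 9 genes. In TN, A_72_P637186 was at 14.22, 11.37 and 13.12 in Creole, at 15.78, 16.45, 12.01 and 14.63 in F1, and at 13.65, 15.77, 16.01 and 13.54 in LW. In HS it was at 14.64, 14.25, 14.65, 11.70 and 12.72 in Creole, at 13.61, 14.56, 12.52, 13.62 and 13.32 in F1, and at 15.31, 13.42, 15.15, 13.23 and 16.20 in LW. High and low pigs occurred in every group. The brightest pig was 33.7 times above the dimmest on the intensity scale. The SD within groups was 1.35, which was higher than or equal to that of 99.8% of all tested probes, whose median was 0.18. The HS minus TN difference was -0.24 (95% confidence interval -1.27 to 0.79, adjusted p = 0.802). All 6 PCK1 probes gave a like pattern, with r from 0.99 to 1.00 between each pair over the 26 arrays and differences from -0.30 to -0.24. With the slide as a block these were -0.52 to -0.46, and none passed (adjusted p from 0.46 to 0.516).

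GRB10, the inhibitory adaptor, was also variable, with an SD within groups of 0.80 for A_72_P441159 (98.6% of tested probes had a lower or equal one). In TN it was at 13.66, 11.71 and 13.22 in Creole, at 13.30, 13.50, 12.97 and 13.97 in F1, and at 13.09, 13.56, 13.97 and 12.75 in LW. In HS it was at 11.80, 12.56, 12.17, 11.99 and 13.19 in Creole, at 12.30, 14.89, 12.65, 12.14 and 12.34 in F1, and at 13.96, 12.35, 13.65, 12.60 and 14.20 in LW. In F1, 4 of the 5 HS pigs lay below all TN pigs and the other one above all of them. The difference was -0.35 (95% confidence interval -0.94 to 0.24, adjusted p = 0.463). The 7 GRB10 probes ranged from -0.43 to 0.04, in which A_72_P080456 and A_72_P418899 were at 0.04 and -0.03. These 2 correlated with each other at r = 0.96 and with A_72_P441159 at 0.73 and 0.66 over the 26 arrays.

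**Figure D2:**
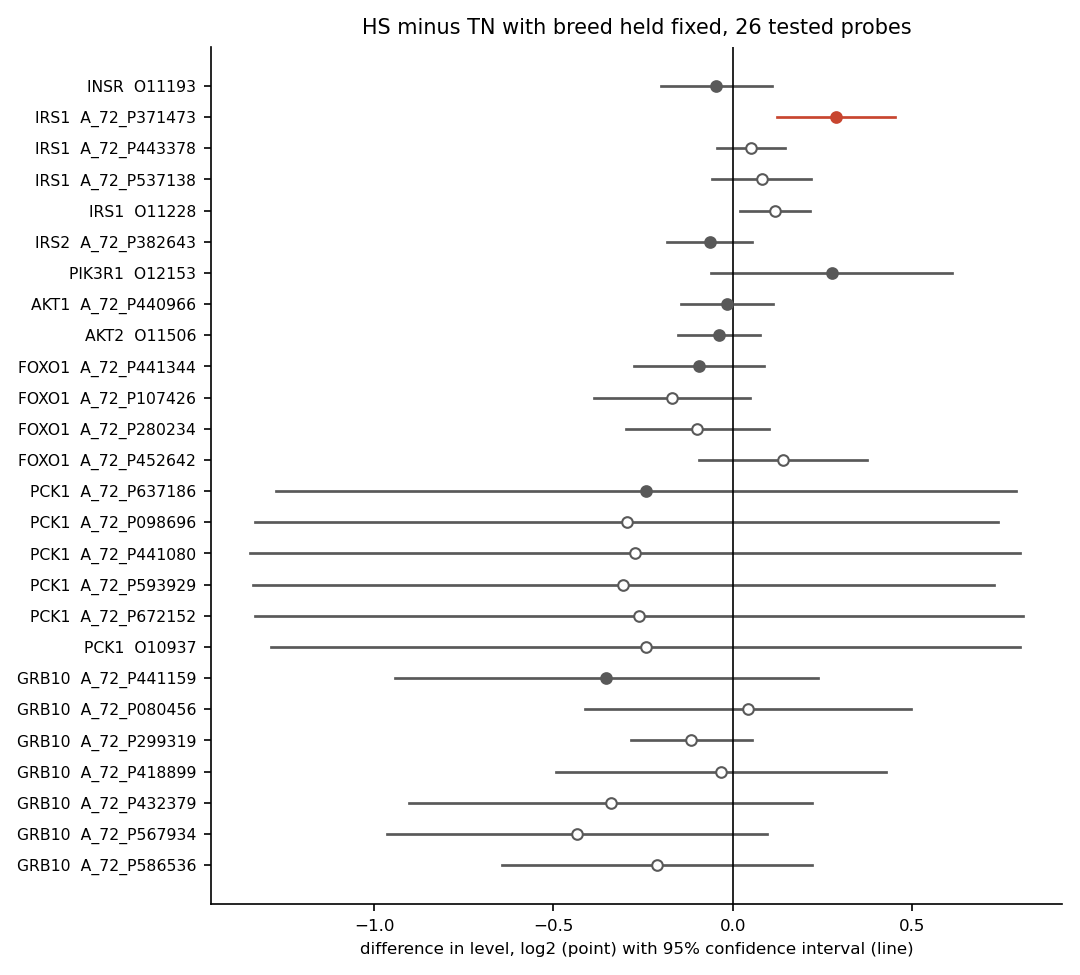
Difference HS minus TN (log2, horizontal axis) with its 95% confidence interval for the 26 tested probes, breed held fixed; filled points are the probe described first for each gene, open points the other probes, and red marks an adjusted p under 0.05. Only IRS1 A_72_P371473 at 0.29 is red, and the PCK1 intervals are the widest.

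Within single breeds, 0 of the 26 member probes passed in Creole, in F1 or in LW, where 0.0716%, 0.421% and 1.5% of all probes did with limma. At an unadjusted p under 0.05 there were 1, 0 and 1 member probes, against 11.1%, 16.0% and 16.7% of all tested probes. The IRS1 probe A_72_P371473 was at 0.43 in Creole, 0.21 in F1 and 0.26 in LW (adjusted p = 0.276, 0.483 and 0.354), with all 5 HS pigs above the TN mean in each breed. The other IRS1 probes were above 0 in Creole and LW. In F1 they were at 0.08 (O11228), -0.06 (A_72_P443378) and -0.11 (A_72_P537138). PCK1 was at 0.69 in Creole, -1.19 in F1 and -0.08 in LW, and GRB10 at -0.52, -0.57 and 0.01. In all 5 F1 HS pigs INSR, AKT1 and PCK1 were below the F1 TN mean, with differences of -0.20, -0.14 and -1.19 that did not pass. The interaction of breed and temperature passed for 0 member probes (adjusted p from 0.897 to 0.974) and for 0.00224% of all probes, and 0 member probes had an unadjusted p under 0.05, against 5.24% of all tested probes. A difference between breeds in the response of these genes was therefore not detected.

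**Figure D3:**
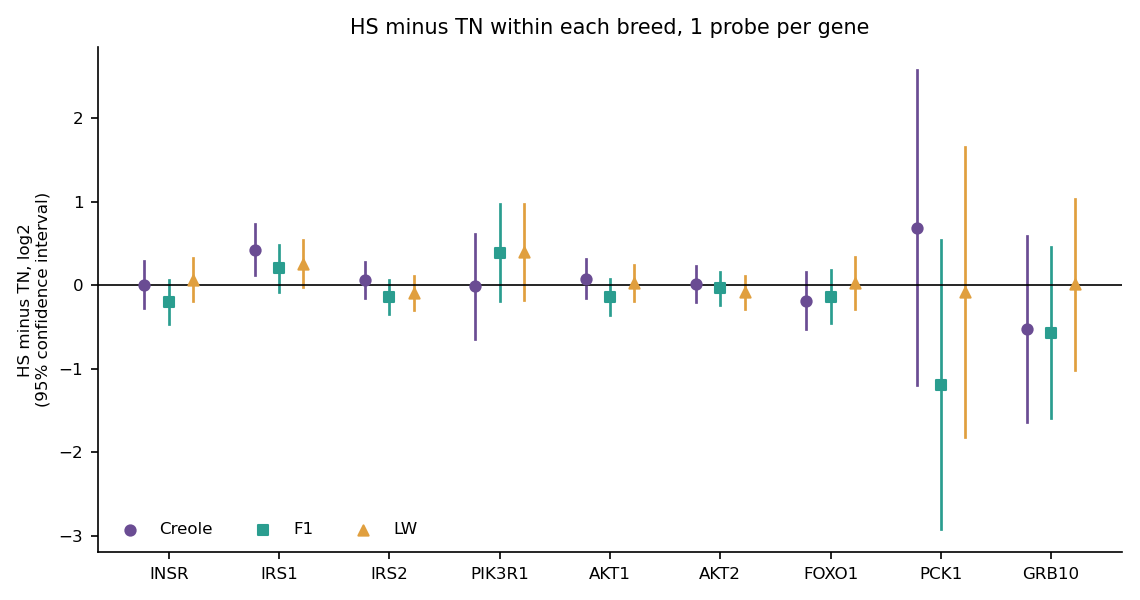
HS minus TN (log2, vertical axis) within Creole, F1 and LW for 1 probe per gene, with 95% confidence intervals. The 3 IRS1 estimates lie above 0, the PCK1 estimates run from -1.19 in F1 to 0.69 in Creole, and the intervals of the 3 breeds overlap for every gene.

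The second question was whether the breeds differed. In LW minus Creole with temperature held fixed, 3 of 26 member probes passed (11.5%), all higher in LW, against 14.3% of all tested probes, 6.89% being higher and 7.43% lower in LW. They belonged to IRS1 and FOXO1. The median difference was 0.33 over the member probes and 0.00 over all probes, and the PCK1 probes, which repeat one another, make up 6 of the 26. At an unadjusted p under 0.05 there were 13 of 26 member probes, 4 PCK1 probes among them, against 29.0% of all tested probes. With the slide as a block, 9 of 26 member probes passed (34.6%), of which 6 were those of PCK1, against 13.5% of all tested probes.

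IRS1 A_72_P371473 was at 11.28 ± 0.31 (SD, n = 8) in Creole, 11.38 ± 0.24 (SD, n = 9) in F1 and 11.65 ± 0.19 (SD, n = 9) in LW. LW was higher than Creole by 0.40 (SE 0.10, 95% confidence interval 0.19 to 0.60, adjusted p = 0.00887), and all 9 LW pigs were above the Creole mean of their temperature. The other 3 IRS1 probes differed by 0.02 each and did not pass, and the mean of the 4 probes differed by 0.11 (adjusted p = 0.213). LW was higher than Creole on 3 of the 4 slides that held both breeds. The fibroblast and matrix score ranged from -1.01 (a Creole TN pig) to 0.26 in Creole, with a median of -0.03, and from -0.11 to 0.62 in LW, with a median of 0.23, and the adipocyte score from 0.03 to 0.40 in Creole and from -0.27 to 0.03 in LW. Their part in the breed difference was not tested.

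All 4 tested FOXO1 probes were higher in LW, by 0.26 to 0.54, and 2 of them passed. A_72_P441344 was at 12.13, 11.80 and 11.88 in Creole TN and at 11.65, 11.65, 11.79, 11.62 and 12.03 in Creole HS, against 12.14, 12.12, 12.22 and 12.12 in LW TN and 12.14, 12.15, 12.49, 12.09 and 11.99 in LW HS. Most LW pigs were above most Creole pigs, with overlap at the ends. The difference was 0.34 (SE 0.11, 95% confidence interval 0.12 to 0.56, adjusted p = 0.0349). A_72_P452642 was at 9.66 ± 0.30 (SD, n = 8) in Creole and 10.19 ± 0.22 (SD, n = 9) in LW and differed by 0.54 (SE 0.14, 95% confidence interval 0.25 to 0.83, adjusted p = 0.0114). A_72_P107426 and A_72_P280234 differed by 0.33 and 0.26 and did not pass (adjusted p = 0.0834 and 0.142). With the processed signal scaled to the 75th percentile A_72_P107426 passed (0.41, adjusted p = 0.0458). The call for A_72_P441344 was lost when any one of 7 pigs was left out (Creole HS replicates 1, 2, 3 and 4, Creole TN replicate 2, LW HS replicates 2 and 3), with an adjusted p of up to 0.0743. It was also lost with the slide as a block (0.35, adjusted p = 0.0522) and with the background-corrected processed signal scaled to the 75th percentile (0.28, adjusted p = 0.0664), whereas A_72_P452642 kept its call in all these fits. The mean of the 4 probes differed by 0.37 (adjusted p = 0.0217). FOXO1 correlated with the endothelial marker score (r = 0.67 over 26 arrays, 0.39 after removing the group means), which ranged from -0.41 to 0.11 in Creole and from 0.00 to 0.20 in LW, and the part of this was not tested.

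PCK1 was at 13.33 ± 1.31 (SD, n = 8) in Creole, 14.05 ± 1.45 (SD, n = 9) in F1 and 14.70 ± 1.22 (SD, n = 9) in LW. LW was above Creole by 1.35 (95% confidence interval 0.09 to 2.61, adjusted p = 0.143), or by 1.24 to 1.36 over the 6 probes, and 7 of 9 LW pigs were above the Creole mean of their temperature. With the slide as a block the difference was 1.86 and passed (adjusted p = 0.023), as did all 6 PCK1 probes, and LW was higher on each of the 4 slides that held both breeds. GRB10 A_72_P441159 was at 12.54 ± 0.74 (SD, n = 8) in Creole and 13.35 ± 0.67 (SD, n = 9) in LW. The difference of 0.79 did not pass (95% confidence interval 0.06 to 1.51, adjusted p = 0.134). The other GRB10 probes ran from -0.07 to 0.47, so that probes of this gene did not give one breed difference.

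INSR went the other way, from 7.27 ± 0.23 (SD, n = 8) in Creole to 7.08 ± 0.16 (SD, n = 9) in LW, but its difference of -0.19 did not pass (95% confidence interval -0.38 to -0.00, adjusted p = 0.167). AKT1 was higher in LW by 0.16 (95% confidence interval 0.00 to 0.32, adjusted p = 0.164), and passed with the slide as a block (0.21, adjusted p = 0.0493). PIK3R1 differed by 0.33 (adjusted p = 0.277), IRS2 by -0.03 (adjusted p = 0.826) and AKT2 by -0.00 (adjusted p = 1.00), none past the threshold.

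**Figure D4:**
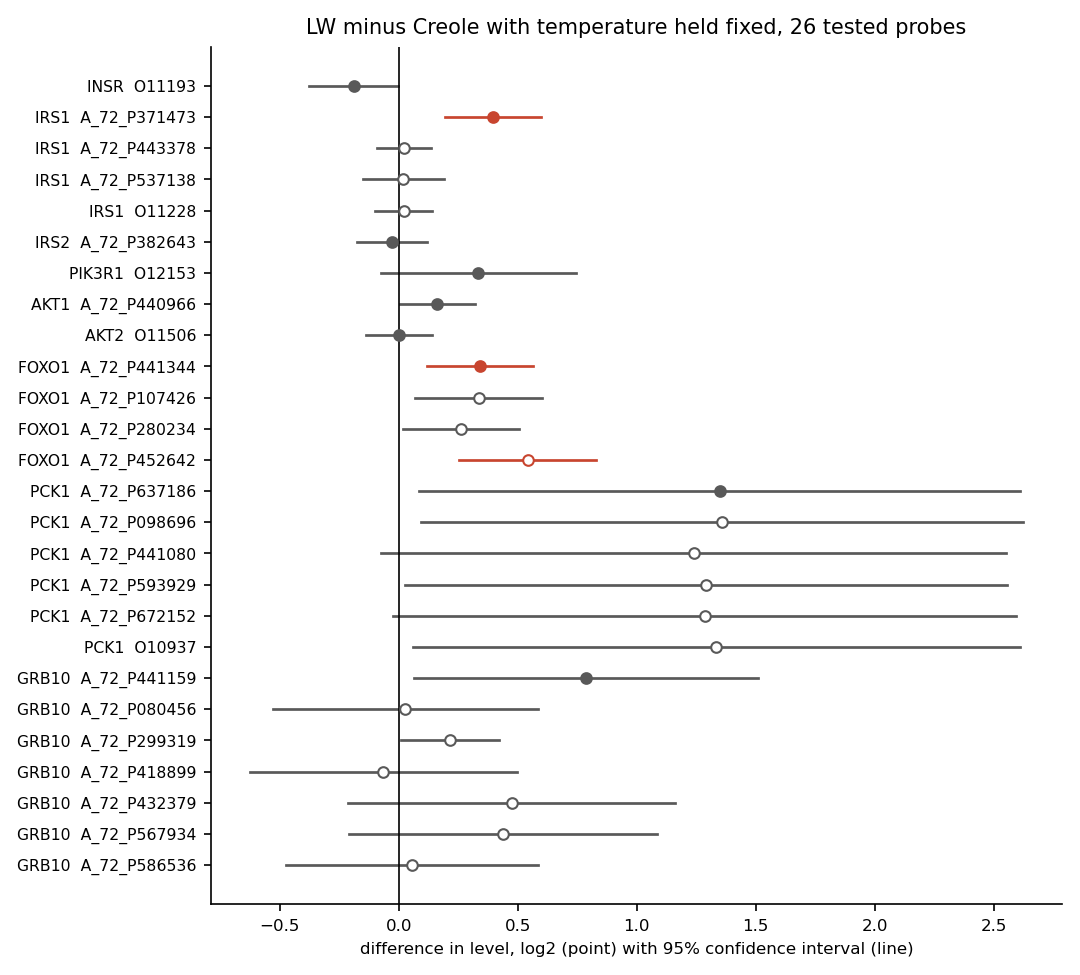
Difference LW minus Creole (log2, horizontal axis) with its 95% confidence interval for the 26 tested probes, temperature held fixed; filled points are the probe described first for each gene and red marks an adjusted p under 0.05. IRS1 A_72_P371473 and FOXO1 A_72_P441344 and A_72_P452642 are red, and the 6 PCK1 probes lie between 1.24 and 1.36 with wide intervals.

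The F1 pigs were compared with the mean of the parental breeds to see whether any member departed from it. None of the 26 probes passed, where 0.00671% of all probes did with limma, and 2 (7.69%) had an unadjusted p under 0.05, against 8.69% of all tested probes. AKT1 was the member with the lowest adjusted p. It was at 11.25, 11.08, 10.82 and 10.75 in F1 TN and 10.93, 10.91, 10.63, 10.85 and 10.83 in F1 HS, with a mean of 10.90 ± 0.18 (SD, n = 9) against 10.61 ± 0.12 (SD, n = 8) in Creole and 10.77 ± 0.15 (SD, n = 9) in LW. The departure was 0.21 (SE 0.06, 95% confidence interval 0.07 to 0.34, adjusted p = 0.299). IRS1 A_72_P371473 was at -0.08 from the parental mean, FOXO1 A_72_P441344 at 0.17 and PCK1 at 0.03.

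Among the members, the highest correlations across the pigs were those of GRB10 with FOXO1 and PCK1. GRB10 correlated with FOXO1 (r = 0.70, Spearman's rho = 0.66, n = 26) and with PCK1 (r = 0.61, rho = 0.57). After the group means were removed the values were 0.60 and 0.55. Without the 2 arrays farthest from the median of FOXO1, or of PCK1, they were 0.63 and 0.55. Distance in GRB10 was not used, and the F1 HS pig with GRB10 at 14.89 stayed in for PCK1. The next highest correlations were AKT1 with PCK1 (0.47), PIK3R1 with GRB10 (0.44) and with FOXO1 (0.42), and FOXO1 with PCK1 (0.41). Without the 2 arrays farthest from the median of AKT1, or of PIK3R1, the first 3 of these were at 0.29, 0.19 and 0.08. INSR correlated with no other member beyond 0.29 in size. After the group means were removed it correlated with GRB10 at 0.33 and with IRS1 at 0.31. These values are descriptions over arrays that share 5 slides and 6 groups.

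**Figure D5:**
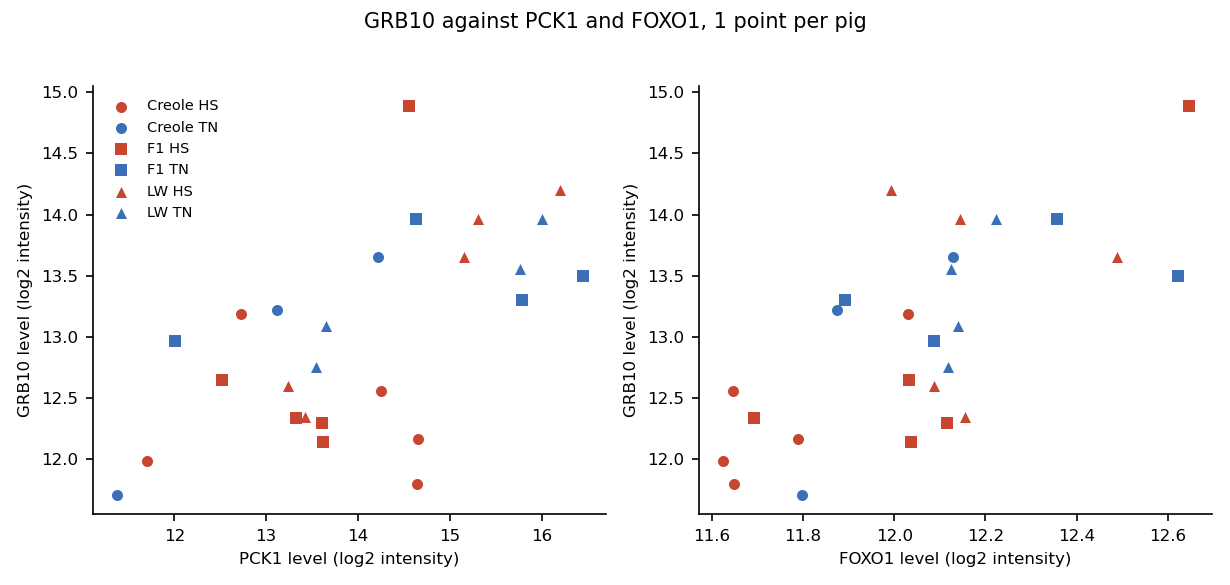
GRB10 (probe A_72_P441159, vertical axes) against PCK1 (A_72_P637186) and FOXO1 (A_72_P441344), log2 intensity, 1 point per pig, with TN in blue and HS in red and a symbol per breed. GRB10 is higher in pigs with more FOXO1 (r = 0.70) and PCK1 (r = 0.61), and the F1 HS pig at 14.89 is the highest for GRB10.

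The named genes most like each member over the 26 arrays, of 9783 compared, were listed by Pearson's r. For IRS1 A_72_P371473 they were COL6A3, a collagen VI chain (0.88), OBSL1 (0.88) and PKD2 (0.88). For PCK1 they were FERMT1 (0.81), BAZ1A (0.79) and FABP5, a fatty acid binding protein (0.75), and for GRB10 they were RASSF8 (0.83), ABHD5, the co-activator of adipose triglyceride lipase (0.81), and ZNF518B (0.79). FOXO1 was most like KLHL2 (0.77), SH3BP5 (0.77) and MED14 (0.76), and INSR most like ULK1, a kinase that starts autophagy (0.77), HPS1 (0.76) and GALK2 (0.76). AKT1 came with TOLLIP, TAOK3 and EIF2S1 (0.69, 0.69 and 0.67), AKT2 with GUCD1, MRPL52 and PRKG1 (0.71, 0.64 and 0.64), PIK3R1 with THRB and RPL29 (0.66 and 0.64), and IRS2 with DNAH9, PPOX and PRND (0.66, 0.66 and 0.65). Spearman's rho for these pairs lay between 0.48 and 0.91, except for IRS2 with PRND, where it was 0.23. Nothing about shared control follows from such lists.

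Around the members, 59 other genes of the pathway were listed by role, of which 47 had a probe and 44 a tested one. In HS minus TN, 7 of the 44 were higher, 1 was lower and 36 did not pass (18.2% passed, against 12.6% of the 9968 named genes with 1 probe each). With the processed signal scaled to the 75th percentile 5 of the 44 passed (11.4%), against 14.1% of all tested probes, and without the breed term 5 passed against 7.9%. On the receptor side 2 of 12 rose. PTPRF, a receptor phosphatase known to act on the insulin receptor, went from 10.84 ± 0.33 (SD, n = 11) to 11.30 ± 0.30 (SD, n = 15), a difference of 0.48 (adjusted p = 0.00891) with 14 of 15 HS pigs above the TN mean of their breed. Its other tested probe had the same sign and did not pass. GRB2, the adaptor to the RAS arm, rose by 0.18 (adjusted p = 0.0276), while its 3 other probes had the opposite sign and did not pass. With the processed signal scaled to the 75th percentile its difference was 0.16 and did not pass (adjusted p = 0.0607).

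Among the lipid kinase and phosphatase genes 1 of 6 passed. INPP5K, a phosphatase of the lipid signal, was higher by 0.27 (adjusted p = 0.00167) in 15 of 15 HS pigs, but by 0.13 (adjusted p = 0.115) with the processed signal scaled to the 75th percentile. Its probe shared a run of 18 or more bases with 1 probe not named for this gene. PHLPP1, a phosphatase that switches AKT off, rose by 0.27 (adjusted p = 0.0203), 1 of 6 genes in the AKT group. PPP2CA, of the same group, was counted as not passing by its brightest probe (-0.15, adjusted p = 0.129). Its 6 other probes were also lower in HS, and 3 of them passed. TBC1D4, the AKT substrate that controls GLUT4 vesicles, rose by 0.26 (adjusted p = 0.036), 1 of 7 in its group, and GLUT4 itself (SLC2A4) was at -0.30 (adjusted p = 0.221). The other tested probes of INPP5K (1), PHLPP1 (2) and TBC1D4 (1) had the same sign and did not pass.

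In the growth arm RHEB, the activator of mTORC1, was the 1 gene of 6 that passed. It fell by 0.19 on the log2 scale (SE 0.04, adjusted p = 0.00437), from 12.12 ± 0.09 (SD, n = 11) to 11.93 ± 0.08 (SD, n = 15), and 1 of 15 HS pigs was above the TN mean of its breed. On the lipolysis and FOXO side 2 of 7 rose. FOXO3, a relative of FOXO1, was higher by 0.20 (adjusted p = 0.0151), although its 2 other probes had the opposite sign, and the difference was 0.10 (adjusted p = 0.225) with the processed signal scaled to the 75th percentile. IGFBP1, a FOXO target, was higher by 0.23 (adjusted p = 0.0268). With the red blood cell score as a covariate, 0 of the 44 genes and 0.479% of all tested probes passed. The 7 genes that had passed as higher were then at 0.11 (PHLPP1) to 0.37 (PTPRF), and RHEB was at -0.12.

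In LW minus Creole, 2 of the 44 pathway genes were higher, 3 lower and 39 did not pass (11.4% passed, against 15.2% of named genes). GLUT4 showed the widest gap. SLC2A4 was at 14.46 ± 0.47 (SD, n = 8) in Creole and 13.84 ± 0.37 (SD, n = 9) in LW, a difference of -0.64 (SE 0.19, adjusted p = 0.0235), with 0 of 9 LW pigs above the Creole mean of their temperature and its 3 other probes past the threshold in the same direction. GLUT4 is made in muscle as well as fat. The 10 skeletal muscle markers had a median difference of -0.93 and none passed, with a score from -1.35 to 2.72 in Creole and from -2.33 to 1.81 in LW. Of the 8 adipocyte markers, LEP (-1.23) and CIDEA (-0.31) passed as lower in LW, and the part of either list in the SLC2A4 difference was not tested. GYS1, the glycogen synthase found outside the liver, was lower in LW by a difference of -0.34 (adjusted p = 0.0201). RPTOR, a subunit of mTORC1, differed by -0.24 (adjusted p = 0.0113). Higher in LW were PPARGC1A, a coactivator of oxidative genes, by 0.36 (adjusted p = 0.0201, 9 of 9 LW pigs) and INPP5K by 0.24 (adjusted p = 0.0149). The PPARGC1A probe shared a run of 18 or more bases with 2 probes not named for this gene. The INPP5K probe shared such a run with 1. The other INPP5K probe had the opposite sign and did not pass, and the difference was 0.15 (adjusted p = 0.133) with the processed signal scaled to the 75th percentile.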

How the data were processed

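Total RNA from SCAT was labelled with Cy3 and hybridised to Agilent one-colour arrays, and the scans were read by the authors with Agilent Feature Extraction 10.10.1.1, per the submitters' processing notes. The deposited scanner files hold the median pixel intensity of each of 60306 spots, not normalized, with flags for spots above background. The deposited series matrix holds log2 values of 44104 probes and served as an alternative; its retention rule is not given in the sources used here. Non-uniform spots were set to missing, median intensities were quantile normalized between arrays without background correction and log2 transformed, and a probe was kept where 8 or more arrays had it well above background. Groups came from the labels. Linear models (R 4.3.3, limma 3.58.1, data.table version 1.17.8, empirical Bayes with an intensity trend) were fitted to all 44703 probes, with breed and temperature as factors for HS minus TN, LW minus Creole and F1 minus the parental mean, and with 6 group means for within-breed differences and the interaction. Benjamini-Hochberg adjustment covered all tested probes, at a threshold of 0.05. The random effects in the authors' model were not in the labels. The fit was tested on simulated data.

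The members, the other pathway genes and the marker lists were chosen with earlier results of these data known. All member probes were reported. Other pathway genes were named where a probe of theirs passed in HS minus TN, or among the 5 largest that passed in LW minus Creole. For each member the 3 most correlated named genes were taken. One such gene and one probe sequence are not reported here. No depth is defined for arrays, and the number of arrays limits the precision. Alternatives changed the signal, background, filter, slide block, weights, breed term, a marker covariate and the arrays included.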

Additional observations from a re-analysis of the deposited data

Results flagged for a closer look

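In 50 checks of a group of 4 or 5 pigs, a single array stood apart from the rest of its group 2 times. The AKT2 probe O11506 was at 6.57 in Creole HS replicate 4, against 6.12 to 6.24 in the other Creole HS pigs. The GRB10 probe A_72_P441159 was at 14.89 in F1 HS replicate 2, against 12.14 to 12.65 in the other F1 HS pigs, and this pig was also the highest of its group for the other 6 GRB10 probes and for PIK3R1 (12.85) and FOXO1 A_72_P441344 (12.65). Chance alone gives such a gap in about 1 of 20 groups.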

How the results depend on the processing

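Member probes past the threshold in HS minus TN numbered 1, and 2 with the processed signal scaled to the 75th percentile or with normexp, 0 without the breed term and 0 with the red blood cell covariate; other pathway genes numbered 8, and 5, 5 and 0 with the processed signal scaled to the 75th percentile, without the breed term and with that covariate. In LW minus Creole the member count of 3 became 9 with the slide as a block, 6 of them PCK1 probes, against 13.5% of all probes. Leaving out each array gave 1 member probe in HS minus TN and 2 to 4 in LW minus Creole; other pathway genes ranged from 6 to 9 and from 4 to 8 (8 without Creole HS replicate 5). The counts of 0 for F1 minus the parental mean, the within-breed differences and the interaction were 0 in all settings run. The sign turned for INSR in HS minus TN (0.049 with the 75th percentile, 0.0044 with normexp), for AKT2 in HS minus TN (0.0179 with the 75th percentile) and in LW minus Creole (0.12, 0.0269 and 0.0072 with the 75th percentile, normexp and the slide block), and for AKT1 in HS minus TN (0.0561 with the covariate); none of these passed. Without single arrays, AKT1 in HS minus TN ranged from -0.0423 to 0.020, and in LW minus Creole AKT2 ranged from -0.0265 to 0.0471 and IRS2 from -0.0596 to 0.0321. The cause was not tested. No paired analysis was possible, as the TN and HS pigs were different animals and their litters were not in the labels. Using the processed signal scaled to the 75th percentile shifted the median of all probes by less than 0.1. Signal over background limits FOXO1 O2940, which was not tested and whose strand could not be checked.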

Other observations

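One probe, A_72_P514181, is named FOXO4 in one column of the files and forkhead box O1A in another, and it was counted with neither gene. It differed by -0.05 in HS minus TN (adjusted p = 0.598) and by -0.13 in LW minus Creole (adjusted p = 0.18). A further probe has the same 60 bases as the GRB10 probe A_72_P432379 and was not a member by name. It differed by -0.35 in HS minus TN and 0.51 in LW minus Creole, against -0.34 and 0.47 for A_72_P432379. The untested FOXO1 probe O2940 was at 7.57 in Creole TN replicate 2 and between 5.27 and 5.89 on the other 25 arrays.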
